A study of Rattus norvegicus with 11 samples.

Results

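Taste receptor genes were identified among the probes of a rat mRNA and long non-coding RNA array by their symbol, which begins with Tas1r or Tas2r. The rule found 33 genes among 13882 named genes with an mRNA probe, namely 2 Tas1r genes (Tas1r1 and Tas1r3) and 31 Tas2r genes, each measured by 1 probe with 1 spot on an array. The RefSeq table used for naming holds 38 protein-coding taste receptor genes, and the 5 that matched no probe (Tas1r2, Tas2r102, Tas2r130, Tas2r140 and Tas2r145) were not analysed here. The arrays were hybridised with RNA of the trigeminal ganglion (TRG), which gives sensation to the face and houses the cell bodies of its afferent neurons. Male Wistar rats had received 50 μl of complete Freund's adjuvant (CFA, killed mycobacteria in paraffin oil, 1 mg/ml) under the skin of the whisker pad on 1 side. Ganglia were taken on day 7, and neither the labels nor the methods of the study state the age of the animals. There were 6 ganglia of the CFA side (rats 1, 2, 3, 5, 6 and 8) and 5 of the contralateral side (rats 1, 2, 3, 5 and 6). Both groups thus come from injected rats that had been anaesthetised with ketamine and xylazine, and 5 of the 6 rats gave an array to each group, so the 11 arrays are not 11 animals. A ganglion holds neurons, glia and other cells, and in such a tissue fewer cells of a type and less RNA per cell cannot be told apart.

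Taste receptors are G protein-coupled receptors of the taste buds. Members of the Tas1r family act in pairs, Tas1r1 with Tas1r3 as the receptor for umami (amino acid) taste and Tas1r2 with Tas1r3 as the receptor for sweet taste, whereas the Tas2r genes encode the bitter receptors, which are small genes without introns in the coding sequence and lie in clusters. On binding of a ligand the G protein gustducin (Gnat3, with Gnb3 and Gng13) activates phospholipase C beta 2 (Plcb2), calcium is released through Itpr3, the channel Trpm5 opens and ATP leaves through Calhm1 and Calhm3. Solitary chemosensory cells of the airway lining use the same receptors and are contacted by endings of trigeminal neurons, and bitter receptors have been described in many tissues outside the tongue.

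Bitter receptor genes resemble each other, and the start of the coding sequence is shown for the pairs whose probes are set side by side below. Windows around the gene start were found in the RefSeq table for 31 of the 33 genes (build GRCr8), and in 29 of them an ATG stands directly after the upstream part of the window, so that the last 50 bases of the window are the first 50 of the coding sequence. Over the 406 pairs of these 29 genes the median number of equal bases, position by position and without gaps, was 17 of 50, and the highest was 40 of 50, for Tas2r105 and Tas2r107. Tas2r109 and Tas2r117 share 35 bases, Tas2r113 and Tas2r116 share 33, and Tas2r126 and Tas2r143 share 31. Each sequence runs 5′ to 3′ on the strand of the gene, and capitals mark the bases that differ from the other gene of the pair.
Tas2r105 (chr4:167086979-167087028, minus strand): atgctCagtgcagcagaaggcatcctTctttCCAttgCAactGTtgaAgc
Tas2r107 (chr4:167031958-167032007, minus strand): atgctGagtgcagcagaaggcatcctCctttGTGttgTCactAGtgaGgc
Tas2r109 (chr4:167845519-167845568, plus strand): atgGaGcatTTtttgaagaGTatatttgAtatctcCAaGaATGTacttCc
Tas2r117 (chr4:167838199-167838248, plus strand): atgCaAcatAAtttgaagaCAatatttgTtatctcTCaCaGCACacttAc
Tas2r113 (chr4:167942790-167942839, minus strand): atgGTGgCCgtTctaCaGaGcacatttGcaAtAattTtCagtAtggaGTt
Tas2r116 (chr4:167999317-167999366, minus strand): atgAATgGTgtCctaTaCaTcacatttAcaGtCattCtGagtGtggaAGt
Tas2r126 (chr4:72300448-72300497, plus strand): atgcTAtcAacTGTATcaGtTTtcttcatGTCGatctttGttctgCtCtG
Tas2r143 (chr4:72254484-72254533, plus strand): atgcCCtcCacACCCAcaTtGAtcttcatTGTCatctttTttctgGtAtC
The sequences of the array's probes were not used here, so how far a probe reads a related gene was not tested. Tas2r137 and Tas2r108 overlap each other in the RefSeq annotation, Tas2r103 overlaps Tas2r140 and Smim10l1, and Tas1r3 overlaps Dvl1, and a signal of these probes is uncertain as to its gene.

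The values are processed signals of the scanner software, in which background has been subtracted, on a log2 scale after quantile normalisation. On this scale the median over all probes and arrays was 7.49. The median processed signal of an array lay between 74.6 and 117 on the CFA side and between 87.9 and 96.4 on the contralateral side, and 68.9% to 82.3% and 71.6% to 82.8% of the spots were well above background. Arrays that share a scan time in the file headers were taken as 1 slide, which gave 5 slides scanned on 3 days. Slide 1 (contralateral array of rat 3) and slide 3 (contralateral arrays of rats 1 and 2) held the contralateral group, slide 4 (CFA arrays of rats 2 and 3) and slide 5 (CFA arrays of rats 5, 6 and 8) held the CFA group, and slide 2 held both (CFA array of rat 1, contralateral arrays of rats 5 and 6). Slides 1 to 3 were scanned on day 1 and slides 4 and 5 on days 2 and 3, so apart from slide 2 the slide and the group cannot be told apart. Markers of sensory neurons (7 of 8 measured), among them Calca, Scn10a and Prph, were well above background on all 11 arrays, and the log2 of their summed signal was 19.90 to 20.01 on the CFA arrays and 19.91 to 19.99 on the contralateral arrays. That of satellite glia (5 of 6 markers measured) was 18.25 to 18.48 and 18.24 to 18.48. Markers of skeletal muscle (6 markers, all well above background on every array) had 13.05 to 13.40 and 13.26 to 13.53, and those of the anterior pituitary (6 markers, 5 of them so) 12.05 to 18.23 and 11.48 to 16.71. The part of these tissues in the values of the taste receptors was not tested.

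The question for the first comparison was which taste receptor genes gave a signal in the ganglion at all. The scanner software marks a spot as well above background by its own criterion. By this mark 8 of the 33 genes were detected on all 11 arrays, 7 on no array and 18 on some arrays. Detection on all arrays was thus reached by 24.2% of the taste receptor probes, against 79.6% of all 15323 mRNA probes, 22.7% of 1157 odorant receptor probes and 29.8% of 131 probes for vomeronasal and trace amine receptors. On single arrays 12 to 20 taste receptor genes were detected on the CFA side and 13 to 21 on the contralateral side. The lowest counts were 12 and 14 (CFA arrays of rats 2 and 3, slide 4) and 13, 14 and 15 (slide 2), whereas slides 1 and 3 had 19 to 21 and slide 5 had 19, 20 and 16 (CFA arrays of rats 5, 6 and 8). The share of odorant receptor probes detected was also lowest on the CFA array of rat 2 (27.9%) and highest on the contralateral array of rat 3 (48.4%).

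The umami receptor gene Tas1r1 was among the 8 genes detected on every array, whereas its partner Tas1r3 was detected on none. The other 7 detected on every array were the bitter receptor genes Tas2r104, Tas2r113, Tas2r116, Tas2r117, Tas2r135, Tas2r136 and Tas2r139. Besides Tas1r3, the genes detected on no array were Tas2r103, Tas2r105, Tas2r106, Tas2r108, Tas2r114 and Tas2r7l, so that the probe of Tas2r105, whose mouse counterpart is the receptor for cycloheximide, gave no detected signal. The mean normalised log2 signal of these 7 lay between 0.99 (Tas2r7l) and 2.23 (Tas2r106). Tas2r107, which is most like Tas2r105 in the sequences above, was detected on the CFA array of rat 5 (3.52) and lay between 0.99 and 1.30 on the other 10 arrays.

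Detection on some arrays fell unevenly on the groups for several genes. Tas2r125 and Tas2r126 were detected on 6 of 6 CFA arrays and 3 of 5 contralateral arrays. Tas2r119 was detected on 3 CFA arrays, all of slide 5, and on 0 contralateral arrays. In the other direction, Tas2r134 and Tas2r144 were detected on 4 CFA and 5 contralateral arrays, Tas2r109 on 3 and 5, Tas2r120 and Tas2r137 on 1 and 3, Tas2r124 on 0 and 3 and Tas2r110 on 0 and 2. Tas2r143 was detected on 5 CFA and 4 contralateral arrays, Tas2r118 on 4 and 3, Tas2r129 and Tas2r138 (the counterpart of the human receptor for phenylthiocarbamide) on 3 and 3, and Tas2r123 on 2 and 2. Tas2r13 (3.77, rat 1) and Tas2r121 (5.32, rat 8) were detected on a single CFA array each, and on no contralateral array.

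**Figure D1:**
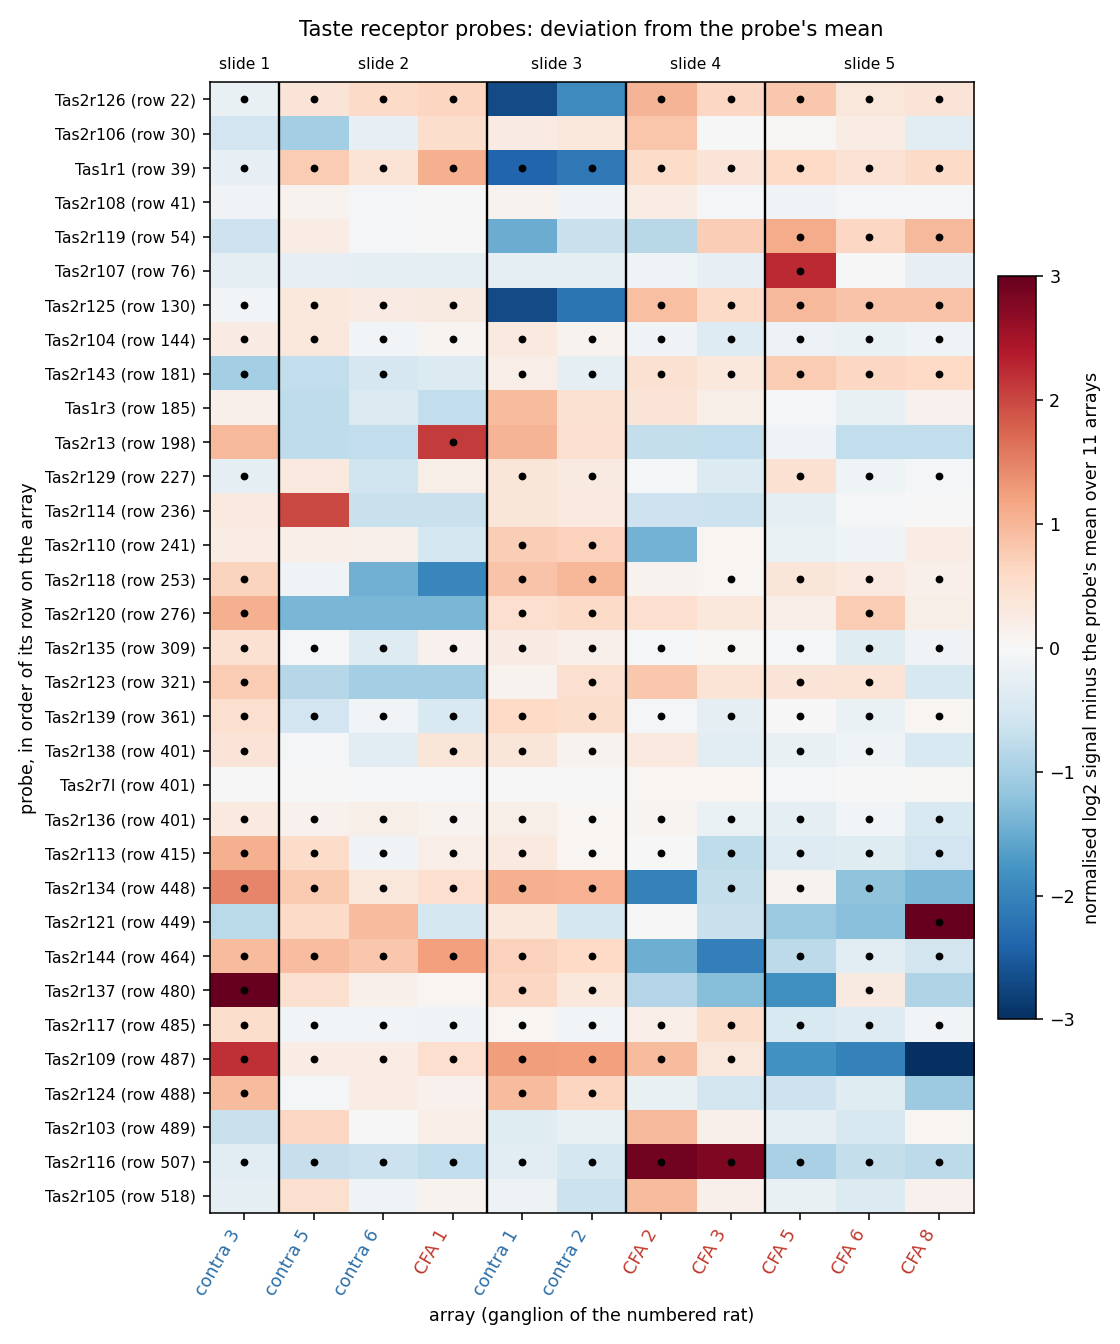
Each cell is the normalised log2 signal of a taste receptor probe (in order of its row on the array) on 1 array minus the mean of that probe over the 11 arrays, with the arrays in order of slide, CFA arrays in red and contralateral arrays in blue lettering, and a dot where the spot was well above background; the colours end at 3 and -3. Tas2r126, Tas1r1 and Tas2r125 are low on both arrays of slide 3, Tas2r134 and Tas2r144 are lowest on arrays of slides 4 and 5, and Tas2r116 is high on both arrays of slide 4.

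The main comparison asked which taste receptor genes differed between the CFA and the contralateral ganglia. At the study's threshold (an unadjusted p of 0.05 or less in limma and an absolute fold change over 2) 7 of the 33 genes passed, of which Tas1r1, Tas2r125 and Tas2r126 were higher on the CFA side and Tas2r109, Tas2r134, Tas2r137 and Tas2r144 were lower, while 26 did not pass. This is 21.2% of the taste receptor probes, against 2.01% of all 24684 probes (1.14% higher and 0.867% lower), 7.43% of the odorant receptor probes, 7.63% of the vomeronasal and trace amine receptor probes and 6.24% of the 4296 probes whose mean signal lay within the quartiles of the taste receptors. Those 4296 include probes averaged over several spots, unlike the taste receptors. Of such probes with 1 spot, 1.06% to 20.0% passed in single bands of rows, as given below. An unadjusted p of 0.05 or less was reached by 15 genes (5 higher, 10 lower), against 11% of all probes. After Benjamini-Hochberg adjustment over all probes 0 of the 33 genes and 0% of all probes reached an adjusted p of 0.05 (smallest adjusted p of a taste receptor 0.253, limma). The CFA and the contralateral arrays overlapped for each of the 33 genes, and they did not overlap for 1.2% of all probes. The median log2 fold change of the 33 genes was -0.13, beside -0.05 over all probes. For single genes an exact permutation test (two-sided, over the 462 splits of the arrays) is given, which takes no account of the rat and whose smallest possible p is 0.00433.

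Tas1r1 was the single gene of the umami and sweet receptor family past the threshold. On the contralateral arrays of rats 1, 2, 3, 5 and 6 its normalised log2 signal was 5.89, 6.13, 8.03, 9.05 and 8.69, and on the CFA arrays it ran from 8.68 to 9.35 with a median of 8.84. The 2 arrays of slide 3 were low, while those of slide 2 lay within the range of the CFA group, so the groups overlapped. The same step stood in the raw median signal of the spot, which was 91.0 and 101.5 on slide 3 and between 240.0 and 613.0 on the other 9 arrays. The group means were 8.89 ± 0.24 (SD, n = 6) and 7.56 ± 1.46 (SD, n = 5), and the log2 fold change came to 1.33 (with a standard error, SE, of 0.55, limma adjusted p = 0.440). Higher values on the CFA side were measured in 4 of 5 rats, and p was 0.0736 in the exact permutation test. Within slide 2 the CFA array exceeded the mean of the contralateral arrays by 0.48. Leaving out the contralateral array of rat 1 or of rat 2 took Tas1r1 below the threshold (0.91 and 0.97), as did leaving out the CFA array of rat 1, 2, 5 or 8 (1.23 to 1.34). With the rat as a block the log2 fold change was 1.33 and the gene did not pass.

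The probe of Tas1r3, the partner of Tas1r1, had 2.63, 2.13, 1.84, 0.92 and 1.24 on the contralateral arrays and 0.93 to 2.06 (median 1.71) on the CFA arrays, so the groups overlapped, and since none of these spots was well above background no fold is given.

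Tas2r126 and Tas2r125, the higher bitter receptors, had the same arrays at the bottom. For Tas2r126 the contralateral arrays had 1.57, 2.37, 4.04, 4.66 and 4.85 (rats 1, 2, 3, 5 and 6) and the CFA arrays 4.60 to 5.29 with a median of 4.90. This gave a log2 fold change of 1.40 (SE 0.55, limma adjusted p = 0.430) with higher CFA values in 4 of 5 rats (exact permutation p = 0.0303), and the gene did not pass without the contralateral array of rat 1 (0.92) or rat 2 (1.12). With the rat as a block the value was 1.45, and the gene did not pass. For Tas2r125 the contralateral arrays had 0.99, 1.49, 3.59, 3.99 and 3.94 and the CFA arrays 3.94 to 4.65 with a median of 4.53. Both probes were not well above background on slide 3 and well above it on all other arrays. For Tas2r125 the log2 fold change was 1.62 (SE 0.54, limma adjusted p = 0.387), with higher CFA values in 5 of 5 rats (exact permutation p = 0.00866). Within slide 2 the difference was 0.16 for Tas2r126 and -0.02 for Tas2r125. Without the 2 arrays of slide 3, an alternative chosen after seeing the data, none of these 3 genes passed the threshold (0.30 for Tas1r1, 0.39 for Tas2r126 and 0.58 for Tas2r125). Tas2r143, which lies near Tas2r126 in the genome and shares 31 of its first 50 coding bases, was not low on slide 3. Its contralateral arrays had 4.26, 3.76, 3.03, 3.32 and 3.54 and its CFA arrays 3.65 to 4.82 with a median of 4.58, and its log2 fold change of 0.86 (SE 0.25, limma p 0.00529 and 0.320 after adjustment) stayed under 2-fold. It passed the study's threshold without the arrays of slide 3 (1.15), without the contralateral array of rat 1 (1.03) and without the CFA array of rat 1 (1.02).

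Tas2r119 had a CFA median of 3.17 (1.64 to 3.59) and contralateral values of 0.99, 1.81, 1.87, 2.70 and 2.44. Since none of its contralateral arrays was well above background, its level there has only an upper bound. Against that bound the CFA mean was 1.29-fold higher. The fit to the values without the bound gave a limma adjusted p = 0.440. Only 3 CFA arrays measured Tas2r119, and within slide 2 the log2 difference was -0.11.

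Of the 4 genes that were lower, Tas2r134 had the smallest p. Its contralateral arrays had 5.62, 5.61, 6.04, 5.36 and 4.89 (rats 1, 2, 3, 5 and 6), and its CFA arrays 2.52 to 5.06 with a median of 3.60. The highest CFA value was that of rat 1 on slide 2, the only CFA array within the contralateral range, and the lowest were those of rats 2 and 8. The means were 3.78 ± 0.95 (SD, n = 6) and 5.50 ± 0.42 (SD, n = 5), with a log2 fold change of -1.73 (SE 0.42, limma adjusted p = 0.253). The CFA side was lower in 5 of 5 rats (exact permutation p = 0.00866). Within slide 2 the log2 difference was -0.06.

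Tas2r144 was nearly level on the contralateral arrays, with 5.49, 5.40, 5.75, 5.72 and 5.60. On the CFA side it had 6.02 in rat 1, the highest of the 11 arrays, and 2.75 to 4.47 in the other 5. The log2 fold change was -1.46 (SE 0.47, limma adjusted p = 0.364) and 4 of 5 rats were lower on the CFA side (exact permutation p = 0.0260). Without the CFA array of rat 1, Tas2r144 was the single taste receptor past an adjusted p of 0.05 (0.0357, limma), in a fit in which 121 of all probes passed. That array was the only CFA array on a slide or scan day with contralateral arrays. In that fit the group therefore cannot be told apart from slide and scan day. Without the arrays of slide 4 Tas2r144 did not pass (-0.91), and within slide 2 its sign was the opposite (0.36). Tas2r139, its neighbour in the genome, was detected on every array and did not pass: its contralateral arrays had 5.91, 5.85, 5.80, 4.76 and 5.25, its CFA arrays 4.86 to 5.38 (median 5.20), and its log2 fold change was -0.34 (SE 0.21, limma adjusted p = 0.530).

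For Tas2r137 the log2 fold change was -1.68 (SE 0.55, limma adjusted p = 0.384) and 4 of 5 rats lower on the CFA side (exact permutation p = 0.00866). Its contralateral values were 4.10, 3.78, 6.49, 3.95 and 3.62, so that the array of rat 3 on slide 1 stood above the others. The CFA arrays had 1.62 to 3.74 with a median of 2.59, and only that of rat 6 was well above background. Within slide 2, where its values were not well above background, the difference was -0.26.

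Tas2r109 had the largest fold change of the family, -1.88 on the log2 scale (SE 0.75, limma adjusted p = 0.430). Its contralateral arrays had 6.09, 6.04, 7.01, 5.04 and 5.05. The CFA arrays parted by slide, with 5.32 on slide 2, 5.77 and 5.16 on slide 4 and 3.00, 2.80 and 1.76 on slide 5, and the last 3 were not well above background. All 5 rats with both sides had the lower value on the CFA side (exact permutation p = 0.0563). The gene no longer passed without the CFA array of rat 5, 6 or 8 (-1.44 to -1.68), without the contralateral array of rat 1, 2 or 3 (-1.59 to -1.83), or without slide 5 (-0.43). Within slide 2 the sign was the opposite (0.28). The probe of Tas2r117, which lies next to Tas2r109 in the genome and 2 rows from it on the array and shares 35 of the first 50 coding bases, lay between 4.04 and 5.02 on all 11 arrays (log2 fold change -0.12, standard error 0.19, adjusted p = 0.796 from limma).

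**Figure D2:**
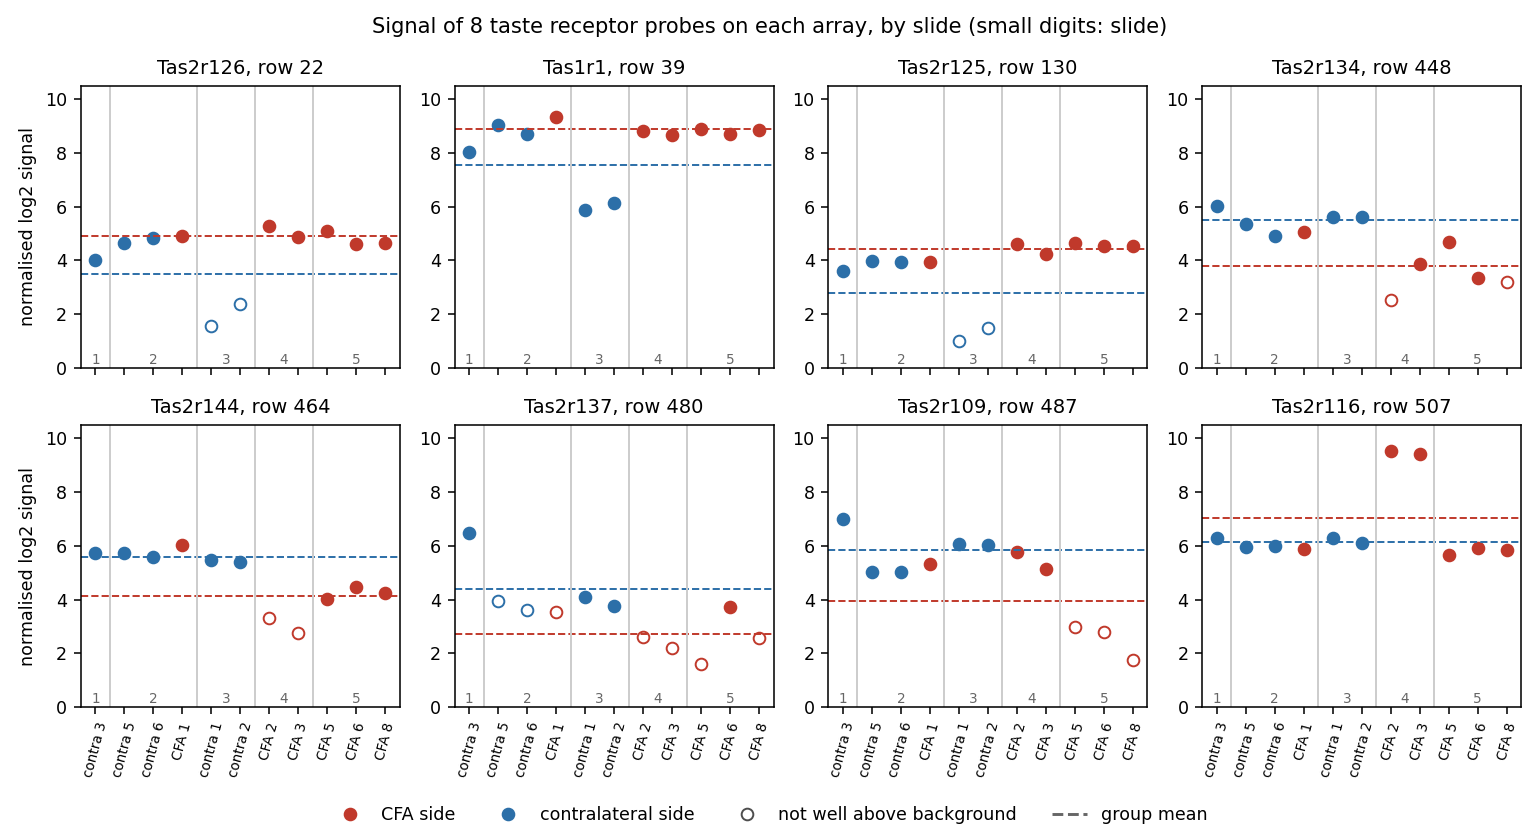
Normalised log2 signal of the 7 taste receptor genes past the study's threshold and of Tas2r116 on each of the 11 arrays, in order of slide (small digits and grey lines), with dashed lines at the means of the 6 CFA and the 5 contralateral arrays and open symbols for spots not well above background. On slide 2, which holds both groups, the CFA array of rat 1 lies within 0.48 of the mean of the contralateral arrays for each of the 8 genes.

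The remaining genes with an unadjusted p of 0.05 or less changed by less than 2-fold, and all were lower on the CFA side. Tas2r113, detected on every array, had contralateral values of 7.56, 7.33, 8.33, 7.82 and 7.16 and CFA values of 6.49 to 7.45 (median 6.89), a log2 fold change of -0.69 (SE 0.23, limma adjusted p = 0.387). Tas2r104 had 6.69, 6.51, 6.66, 6.73 and 6.33 against 6.01 to 6.49 (median 6.25), a change of -0.33 (SE 0.11, limma adjusted p = 0.363). Tas2r136 had 5.19, 5.07, 5.31, 5.14 and 5.18 against 4.57 to 5.12 (median 4.87), a change of -0.30 (SE 0.11, limma adjusted p = 0.420). These 3 were detected on all arrays. Within slide 2 Tas2r104 and Tas2r113 differed by -0.04 each. Tas2r124 was measured on 3 contralateral arrays and on no CFA array, with 3.93, 3.62, 3.94, 2.92 and 3.20 against 1.90 to 3.12 (median 2.52). Against an upper bound of the CFA level its contralateral mean was 1.51-fold higher. The fit to the values without the bound gave a limma adjusted p = 0.254. Within slide 2 the log2 difference of Tas2r124 was 0.06. Tas2r110 had 3.14, 3.08, 2.62, 2.61 and 2.54 against 0.97 to 2.61 (median 2.23), with 2 contralateral arrays detected and no CFA array, which gives no bound above 1. Tas2r114, with 1.93, 1.88, 1.87, 3.56 and 0.91 against 0.91 to 1.56 (median 1.12), was well above background on no array, so no fold is given.

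Tas2r135, also detected on every array, had contralateral values of 5.46, 5.37, 5.66, 5.14 and 4.83 and CFA values of 4.85 to 5.33 (median 5.16). Its log2 fold change was -0.15 (SE 0.15, limma adjusted p = 0.688). In the genome it lies between Tas2r143 and Tas2r126, whose log2 fold changes were 0.86 and 1.40. In the larger cluster, Tas2r125 and its neighbour Tas2r113 had log2 fold changes of 1.62 and -0.69, and the neighbours Tas2r116 and Tas2r123, which follow after Tas2r110, had 0.92 and 0.19. Among the other genes detected in both groups the values lay between -0.36 (Tas2r118) and 0.23 (Tas2r120), each with an unadjusted p above 0.05.

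Tas2r116 stood apart from the other members by slide and not by group. Its normalised log2 signal was 9.53 (rat 2) and 9.44 (rat 3) on the 2 arrays of slide 4, both of the CFA side, and between 5.67 and 6.31 on the other 9 arrays. The raw median signal of the spot was 576.5 and 637.0 on slide 4 and 75.5 to 112.0 elsewhere. The log2 fold change between the groups was 0.92 (SE 0.78, limma adjusted p = 0.635) and it was -0.29 without the arrays of slide 4 and 2.16 without those of slide 5. A gap of at least 2 on the log2 scale between both arrays of slide 4 and all others was found for 40 of 24684 probes (0.162%), and Tas2r116 was the 15th of them by size. The 13 spots around that of Tas2r116 differed by -0.36 to 0.26 between slide 4 and the other arrays. The probe of Tas2r113, with 33 of the first 50 coding bases in common, had 7.28 and 6.49 on slide 4, within its range on the other arrays (6.69 to 8.33) for rat 2 and below it for rat 3.

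The genes past the threshold were not spread evenly over the array. The 532 rows of the array were parted into 4 bands of equal height. All 7 taste receptor probes of the first band (rows 1 to 133) had a positive log2 fold change, with a median of 0.95, and the 3 higher genes lay there, Tas2r126 in row 22, Tas1r1 in row 39 and Tas2r125 in row 130. The last band (rows 400 to 532) held 14 probes, 10 of them with a negative fold change, and the 4 lower genes were among these, in rows 448 (Tas2r134), 464 (Tas2r144), 480 (Tas2r137) and 487 (Tas2r109). In the 2 bands between them 0 of 8 and 0 of 4 genes passed. Signs and medians here include genes that were not well above background.

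Other probes showed the same order of signs along the rows. Among probes with 1 spot whose mean signal lay within the quartiles of the taste receptors, members included, 98 of 489 in the first band passed the threshold (20.0%), all of them higher, with a median log2 fold change of 0.47. In the last band 97 of 608 passed (16.0%), 95 of them lower, with a median of -0.44. The middle bands had 22 of 506 (4.35%) and 6 of 565 (1.06%). Tas1r1, with a mean signal of 8.28, was brighter than these probes. Probes with 1 spot within 10 rows of a gene and 1 log2 unit of its mean signal were taken as near probes. For Tas1r1 their median log2 fold change was 0.08 and 1.32% passed higher. For Tas2r126 the values were 0.50 and 17.9%, and for Tas2r125 0.20 and 9.80%. Near the 4 lower genes the median was -0.59 to -0.31 and 8.97% to 21.7% passed lower. In the first band the arrays of slide 3 were low: the median deviation of the taste receptors from their mean over all arrays was -1.49 (rat 1) and -0.67 (rat 2), and that of the other probes of like signal -0.50 and -0.55. For 3 of the 7 genes of that band (Tas1r1, Tas2r125 and Tas2r126) both arrays of slide 3 were the lowest of all. In the last band the CFA arrays of rats 3, 5, 6 and 8 on slides 4 and 5 had median deviations of -0.27, -0.42, -0.38 and -0.50, while that of rat 2 had 0.08, and other probes of like signal had -0.19 to -0.31 on these 5 arrays. Within slide 2 the median difference was -0.01 for the first band and -0.05 for the last, and 3 of 7 and 4 of 14 genes had a positive sign. Removing a smooth trend over rows and columns of all probes left 6 of the 7 genes past the threshold, without Tas1r1 (1.15). The trend was fitted to spots of every signal level. Over all probes with 1 spot the median log2 fold change was 0.02 in the first band and -0.03 in the last. That trend is thus not the one of probes of like signal, whose removal was not tested.

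**Figure D3:**
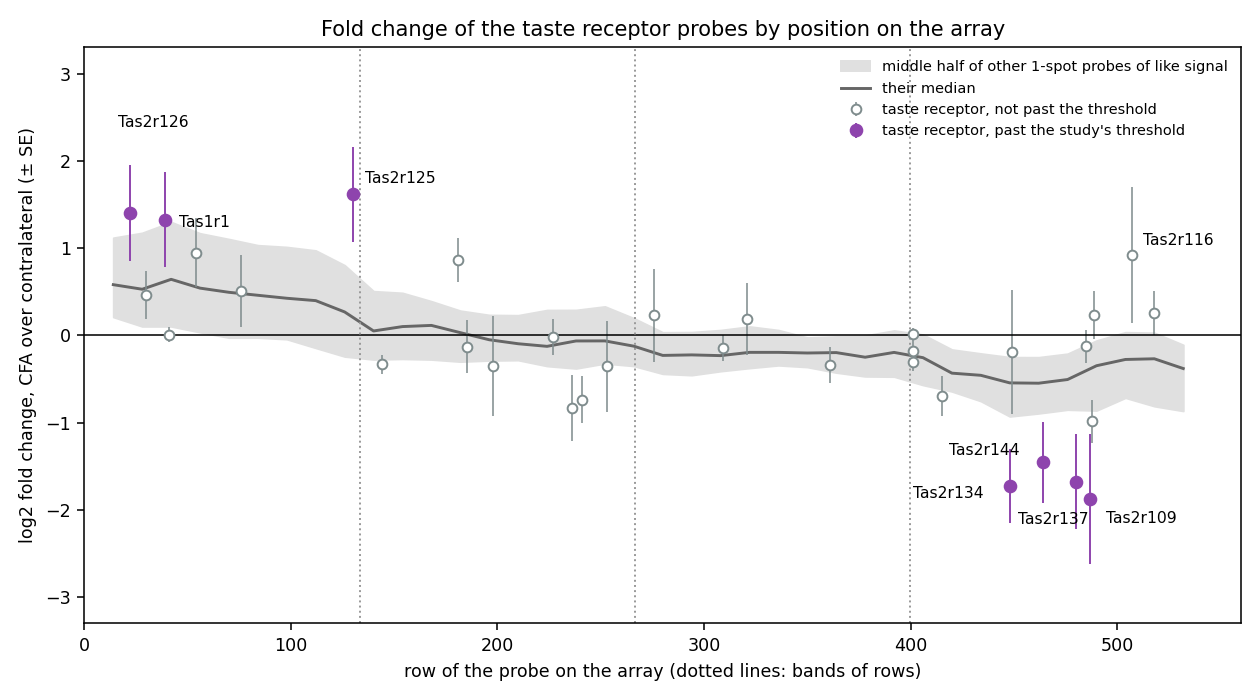
Log2 fold change (CFA over contralateral, with its standard error) of the 33 taste receptor probes against the row of the probe on the array, beside the median (grey line) and the quartile range (grey area) of the other probes with 1 spot and a mean signal within the quartiles of the taste receptors, in windows of rows. The 3 higher genes lie in rows 22 to 130, where the grey line is above 0, and the 4 lower genes in rows 448 to 487, where it is below 0. The mean signals of Tas1r1 (8.28) and Tas2r109 (4.82) lie above those of the grey probes, which end at 4.80.

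The fold changes of the 7 genes were smaller under both other treatments of the background. Without background correction the log2 fold change of Tas1r1 was 1.09, past the threshold, and those of the other 6 were 0.38 (Tas2r126), 0.41 (Tas2r125), -0.70 (Tas2r134), -0.59 (Tas2r144), -0.46 (Tas2r137) and -0.78 (Tas2r109). With a normexp correction of the raw signals the value for Tas1r1 was 0.89, the others lay between -0.47 and 0.22, and 0 of the 33 genes passed. The raw median signals of Tas2r125 were low, from 31.5 to 70.0. On the same arrays the brightest 5% of the negative control spots began between 26.0 and 43.1. Raw median signals ran from 41.0 to 143.0 for Tas2r109 and from 91.0 to 613.0 for Tas1r1.

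**Figure D4:**
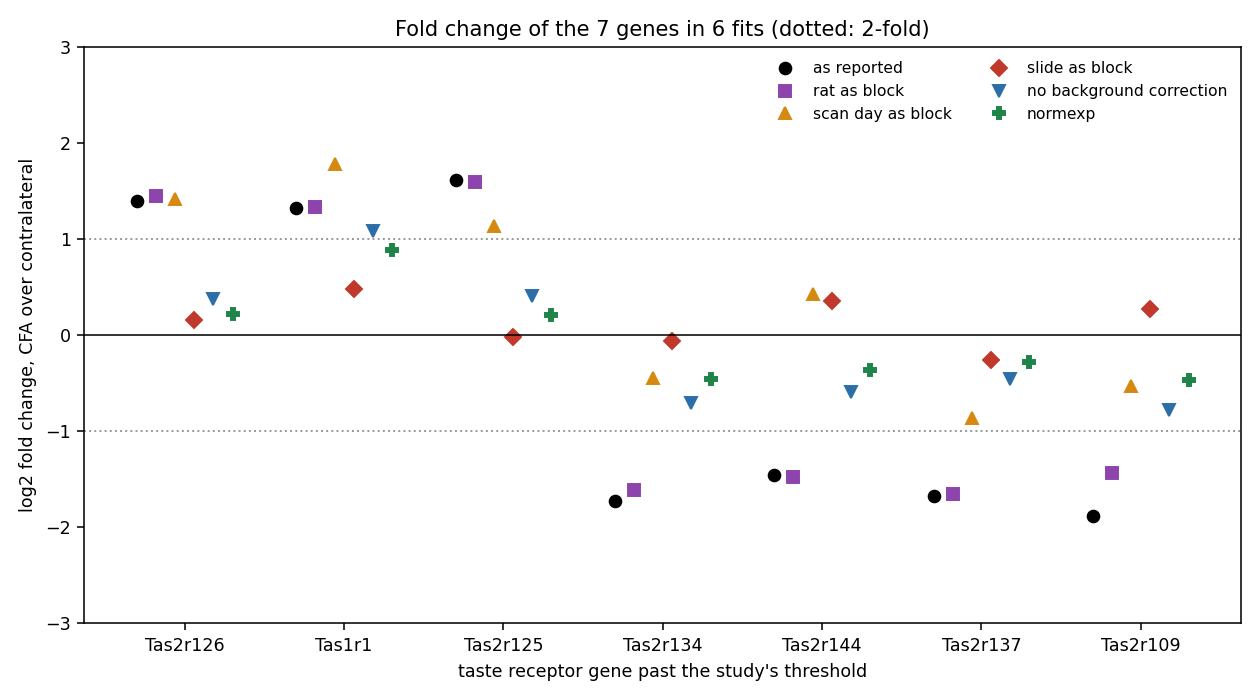
Log2 fold change of the 7 taste receptor genes past the study's threshold in the fit as reported, with rat, scan day or slide as a block, and after 2 other background corrections, with dotted lines at 2-fold. With slide as a block the 7 values lie between -0.26 and 0.48, and Tas2r125, Tas2r144 and Tas2r109 change sign.

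The signalling chain behind the receptors was compared in the same way. Of a list of 49 genes for taste transduction, transport of the receptors and other taste qualities, 40 were measured, 35 of them well above background on every array. Past the study's threshold were 2 of the 40 (5%, 1 higher and 1 lower), against 2.01% of all probes. An unadjusted p of 0.05 or less was found for 5 (12.5%), against 11% of all probes. The median log2 fold change was -0.05, as over all probes. Gnat3, the alpha subunit of gustducin, had 7.46 ± 0.37 (SD, n = 6) on the CFA side and 7.60 ± 0.34 (SD, n = 5) on the other. Its partner Gng13 had 11.44 ± 0.46 and 11.46 ± 0.36, Plcb2 had 4.78 ± 0.36 and 5.02 ± 0.13 and the calcium release channel Itpr3 had 15.02 ± 0.14 and 15.11 ± 0.16. These 4 were well above background on all 11 arrays and none passed (limma adjusted p between 0.561 and 0.971). Trpm5 and Calhm3 were not analysed here.

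Rtp3 encodes a receptor transporter protein that helps taste and odorant receptors to the cell surface, and was the higher gene of the list. Its contralateral arrays had 2.80, 3.46, 4.98, 6.33 and 6.35 (rats 1, 2, 3, 5 and 6) and its CFA arrays 5.95 to 6.44, with a log2 fold change of 1.46 (SE 0.61, limma adjusted p = 0.441). The low arrays were again those of slide 3, the probe lies in row 26, and within slide 2 the difference was 0.09. Calhm1, the channel for ATP release, was the lower gene, in row 473. It was well above background on 3 contralateral arrays and on no CFA array. Against an upper bound of the CFA level the contralateral mean of Calhm1 was 1.22-fold higher. For Calhm1 the fit to the values without the bound gave a limma adjusted p = 0.387. Its contralateral arrays had 2.90, 2.72, 3.56, 3.93 and 2.69, and its CFA arrays 3.41 (slide 2), 2.34 and 1.64 (slide 4) and 1.67, 1.07 and 1.58 (slide 5). Within slide 2 the difference was 0.10.

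Markers of taste receptor cells and solitary chemosensory cells overlap with this list. Of 8 such markers 7 were measured and 5 were well above background on all arrays, and the log2 of their summed signal was 12.44 to 12.86 on the CFA arrays and 12.67 to 13.04 on the contralateral arrays. Krt8, an epithelial keratin that is not particular to these cells, had 12.44 ± 0.14 and 12.63 ± 0.17, and Pou2f3, the transcription factor of chemosensory cells, 7.60 ± 0.23 and 7.85 ± 0.28, neither past the threshold. All 7 markers had a negative log2 fold change (median -0.18), as had 14420 of all 24684 probes. Of the 7 Calhm1 passed the threshold, as given above. Krt8 had the highest signal of the 7, so the summed signal is mainly that of Krt8. Which cells of the ganglion gave the signals of the taste receptor probes was not tested.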

How the data were processed

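RNA of 11 rat trigeminal ganglia (6 CFA side, 5 contralateral side) was measured on single-colour Arraystar LncRNA arrays. The authors deposited intensity values as written by Agilent Feature Extraction 11.0.1.1, in which a local background is subtracted, and a quantile-normalised table of linear intensity values. The arrays' design build is rn4 per the file headers. The number of arrays limits the precision.

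Log2 processed signals were quantile normalised over the 42136 non-control spots, outlier-marked spots were treated as missing, replicate spots were averaged to 24684 probes, and the groups were compared in limma 3.58.1 (R 4.3.3) with no covariate, as the methods of the study name limma and no pairing. Calls used an unadjusted p of 0.05 or less together with a change of more than 2-fold, and a Benjamini-Hochberg adjusted p of 0.05. Exact permutation p-values (2 times the smaller tail) came from scipy 1.17.1. For a gene well above background in 1 group only, a bound is given in place of a fold change. For it the dim group takes, per array, the higher of its own value and the lowest value of any probe well above background. The mean of the other group includes its arrays that were not well above background. The bound has no measure of error and is not a smallest difference. The fit with no covariate was run on simulated data with independent values, which hold no structure by slide, row or rat. The fits with a block were not tested in this way. Accessions were named through a RefSeq table of build GRCr8, used for names and order of genes only. Python 3.11.15, pandas 2.3.3 and matplotlib 3.10.9 were used. Arrays with the same scan time were taken as 1 slide. Per the file headers no mean signal is held, so the alternatives without background correction and with normexp (offset 50) started from the deposited median signal of each spot.

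The taste receptor genes and all gene lists were chosen with earlier results of these data known. Every taste receptor gene is named. Values per array and tests are given for those past the study's threshold, with an unadjusted p of 0.05 or less, or among the 6 with the highest mean signal, and in the transduction list for those past the threshold, with levels and detection for those measured of Gnat3, Gng13, Plcb2, Itpr3, Trpm5, Calhm1 and Calhm3. The values of Tas2r117 were added after they were seen. The values of 1 marker list are not reported here.

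The rat number is that of the animal, so the numbers pair the sides. With the group means removed, both sides of a rat correlated across probes at -0.05, -0.08, -0.03, -0.01 and 0.13 (rats 1, 2, 3, 5 and 6), and the sides of a rat lay on different slides. Other settings tried were 75th percentile scaling, the authors' table, outlier spots kept, a filter on dim probes, a floor at a log2 value of 5, a row and column trend, rat, slide and scan day as blocks, an intensity trend in the variance, and each array left out.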

Additional observations from a re-analysis of the deposited data

Results flagged for a closer look

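In 10 of 66 groups of arrays (33 genes, each in the CFA and the contralateral group) 1 array lay apart from the rest of its group by more than Dixon's 95% criterion on the gap as a share of the range. About 3.3 of 66 would be flagged by chance at 1 in 20. The value given is that share, with the normalised log2 signal of the array and of its nearest neighbour.

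The CFA array of rat 1, on slide 2, accounted for 4 of the 10. It was highest for the umami receptor gene Tas1r1 (share 0.693, 9.35 against 8.89) and for Tas2r13 (0.788, 3.77 against 1.53), and lowest for Tas2r118 (0.871, 2.26 against 4.27) and Tas2r120 (0.730, 1.04 against 2.60). The contralateral array of rat 3, alone on slide 1, was highest for Tas2r137 (0.832, 6.49 against 4.10) and Tas2r117 (0.774, 5.02 against 4.54). For Tas2r107 the CFA array of rat 5 stood above the rest (0.890, 3.52 against 1.30), and for Tas2r121 that of rat 8 (0.703, 5.32 against 2.33). These were the only arrays on which the probes of Tas2r13, Tas2r107 and Tas2r121 were well above background.

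In the last 2 cases the probes were well above background on no array: Tas2r108 was highest on the CFA array of rat 2 (0.659, highest value 1.32), and Tas2r7l was lowest on the contralateral array of rat 6 (0.888, 0.95 against 0.99).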

How the results depend on the processing

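Genes past the study's threshold, 7 taste receptors and 2 of the transduction list in the fit as reported, were counted again under each alternative and are given in this order. There were 0 and 0 with normexp, 1 (Tas1r1) and 0 without background correction, 1 (Tas1r1) and 0 with a floor at a log2 value of 5, 3 (Tas1r1, Tas2r134, Tas2r137) and 0 with slide as a random block, 2 (Tas2r13 higher, Tas2r118 lower) and 0 when scan day was the block, and 3 (Tas2r106 and Tas2r13 higher, Tas2r118 lower) and 0 with slide as a block. The floor lies above the upper quartile (4.80) of the taste receptors' mean signals. It sets the log2 fold change of genes below it on every array, such as Tas2r125 and Tas2r119, to 0 by construction. The count with the floor is therefore no check of these genes. Leaving out slides, chosen after seeing the data, gave 4 (Tas2r143 higher, Tas2r134, Tas2r144 and Tas2r137 lower) and 1 without slide 3, 6 and 1 without slide 4, and 5 and 0 without slide 5. With the rat as a block in the paired fit there were 5 (Tas2r125 higher, Tas2r134, Tas2r144, Tas2r137 and Tas2r109 lower) and 1. The filter on dim probes kept probes well above background on all arrays of at least 1 group. It left 13 taste receptor genes to test, with 6 and 1. Of the 6 only Tas1r1 was well above background on all 11 arrays. Tas2r125, Tas2r126 and Rtp3 were kept through the CFA group, and Tas2r134, Tas2r144 and Tas2r109 through the contralateral group. These are the groups in which they were higher, so the filter is no check of their differences. Scaling to the 75th percentile gave 9, and the authors' table, outlier spots kept and an intensity trend in the variance 7 each. Leaving out 1 array at a time gave 4 (without contralateral array 2) to 10 (without contralateral array 6) and 1 to 2. Over all probes the count was 496 in the fit as reported, 16 with normexp, 47 without background correction, 78 with the floor, 228 with slide as a random block, 445 with scan day and 642 with slide as a block, and 372 with the rat as a block.

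At an adjusted p of 0.05, where 0 genes passed, there was 1 with slide as a block (Tas2r13, limma adjusted p = 0.0288, among 69 of all probes) and 0 to 1 with 1 array left out (Tas2r144 without CFA array 1, among 121 of all probes). Without CFA array 1 no slide held both groups. The median log2 fold change of the taste receptors was -0.17 to -0.06 with 1 array left out. It was -0.30 over the 13 genes kept by the filter on dim probes. The median was -0.00035 with slide as a random block and turned to 0.015 without slide 3. With the floor it was 0, the value that genes below the floor on every array take by construction. Taken as a median signal over the brightest 5% of the negative controls, 14 genes and not 8 were detected on every array.

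The sign of a named gene changed as follows, with slide as a block, which equals the value within slide 2: Tas2r119 -0.11, Tas2r125 -0.021, Tas2r135 0.35, Tas2r144 0.36, Tas2r109 0.28, Tas2r124 0.058 and Tas2r116 -0.063. With scan day as a block it changed for Tas2r135 (0.039), Tas2r144 (0.43) and Tas2r116 (-0.23), with the position trend removed for Tas2r135 (0.081), and without slide 4 for Tas2r116 (-0.29). The causes were not tested, apart from what each alternative's construction shows: the slide block rests on the 3 arrays of slide 2, and the scan day block on 1 CFA array against 5. Signal near background limits most of these genes.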
